A study of Saccharomyces cerevisiae with 6 samples.

Results

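The hexose transporters and glucose sensors of Saccharomyces cerevisiae, the budding yeast, are described here in yeast with an H2B K111A histone, in which an alanine replaces a lysine, and in wild-type yeast. The members are 10 genes named by symbol: HXT1, HXT2, HXT3, HXT4, HXT5, HXT7, HXT10, GAL2, SNF3 and RGT2. They were chosen with earlier results of these data known. All 10 were found among the 5449 budding yeast genes that the arrays measured, each through a single probe set. The H2B K111A group held 3 arrays of the strain WY317, and the wild-type group 3 arrays of the strain PY014. The titles name the wild-type arrays also as the control of another substitution, R102A. Each group is 1 strain, and the labels give no genotype beyond the H2B allele and do not say whether the arrays of a strain came from separate cultures. The p-values therefore reflect only how far these arrays differ within a strain, and that spread may be technical. Both strains grew to mid-log phase in YPD, a rich medium that contains glucose, and were harvested at an optical density between 0.35 and 0.7; the density of the single cultures is not in the labels used here.

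Yeast takes up glucose by facilitated diffusion through a family of related transporters that differ in affinity and in the glucose level at which their genes are expressed. Low-affinity carriers serve cells in abundant glucose, and high-affinity carriers serve cells in scarce glucose. Snf3 and Rgt2 resemble the transporters but act as sensors. When they bind glucose, the corepressors Mth1 and Std1 are degraded and the repressor Rgt1 leaves the HXT promoters, while the Mig repressors hold several of the high-affinity genes down in abundant glucose.

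Each value is the intensity of a probe set on a linear scale, as the authors deposited it. Background was read from 1746 probe sets for genes of another yeast that the array also carries, and its 99th percentile was 3.7. The 6 arrays had mean intensities of 146 to 148. Some control probe sets differed between the strains. Over 14 pairs of probe sets for Bacillus transcripts, the 5' minus the 3' log2 value was -0.35 ± 0.05 in H2B K111A and -0.47 ± 0.05 in wild type, while over 11 such pairs for yeast genes it was -0.77 ± 0.03 in H2B K111A and -0.75 ± 0.06 in wild type (SD, n = 3 each). The mean log2 level of 17 ribosomal RNA probe sets was 6.69 ± 0.09 in H2B K111A and 6.43 ± 0.12 in wild type (SD, n = 3 each). Their part in the results below was not tested. Of the H2B genes, HTB1 averaged 1204 ± 50.5 in H2B K111A and 1280 ± 40.5 in wild type, and HTB2 3.73 ± 0.25 in H2B K111A and 3.9 ± 0.17 in wild type (SD, n = 3 each), at about the background.

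The low-affinity carriers, HXT1 and HXT3, were read well above background in both strains. Of the high-affinity genes HXT7 was too, but GAL2 lay near background. HXT7, a high-affinity transporter gene, rose 1.28-fold in H2B K111A, and HXT1, the low-affinity gene that high glucose induces, was 1.25-fold lower in H2B K111A. The other 6 transporter genes and both sensors did not pass the test. In RNA from a whole culture, fewer cells with a transcript and less of it in each cell cannot be told apart. All 6 arrays lay above background for 9 of the 10 members, and for HXT10 5 arrays did. Strains were compared per gene on log2(intensity + 32), a scale that understates the change of dim genes, with limma over all 5449 genes and Benjamini-Hochberg adjustment, at a threshold of 0.05. Of the 10 members 1 rose and 1 fell, against 6.92% and 7.62% of all genes, and 14.5% of all genes in either direction. The median log2 difference was 0.04 over the members and -0.0005 over all genes. The 2 calls among 10 members are near what the share of all genes gives.

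**Figure D1:**
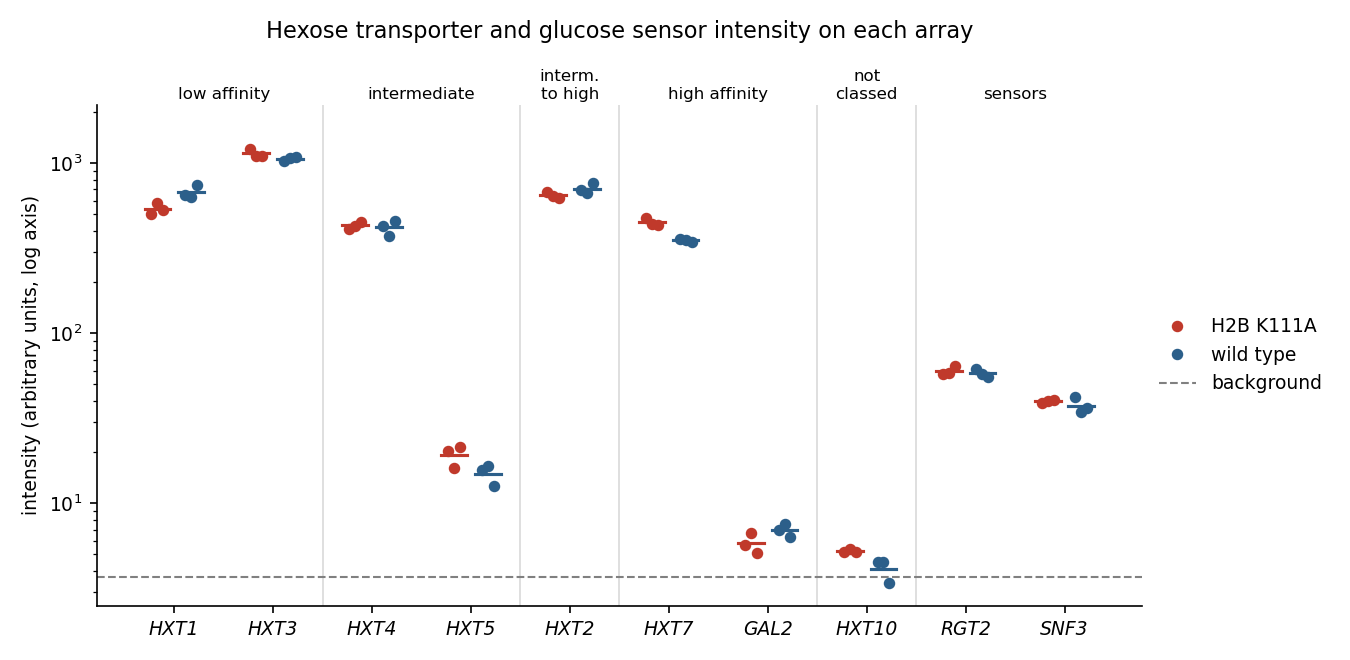
Intensity of the 10 members on each array (log axis, arbitrary units), grouped by transport affinity, with H2B K111A left of wild type; points are arrays, bars are means of 3 and the dashed line is background at 3.7. The strains do not overlap at HXT1, lower in H2B K111A, or at HXT3, HXT7 and HXT10, higher in H2B K111A. GAL2 and HXT10 lie close to background. Heights of different genes come from different probe sets and are not amounts of mRNA.

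Among the low-affinity carriers, HXT1 (YHR094C) read 502.7, 581.3 and 531.4 on the H2B K111A arrays, against 647.1, 634.3 and 742.9 on the wild-type arrays. Every H2B K111A array was below every wild-type array. The means were 538 ± 39.8 in H2B K111A and 675 ± 59.4 in wild type (SD, n = 3 each), a log2 difference of -0.31 ± 0.07 (SE; limma, adjusted p = 0.0215). Wild-type array 3 gave the highest HXT1 value, and without it the log2 difference was -0.24 (adjusted p = 0.0360). The call was lost without mutant array 1 (log2 difference -0.26, adjusted p = 0.0683) and without mutant array 3 (-0.30, adjusted p = 0.0792). It was also lost with a pseudocount of 1 in place of 32 (adjusted p = 0.0539).

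HXT3 (YDR345C), the low-affinity gene that is expressed over a wide range of glucose levels, read 1218, 1107 and 1106 in H2B K111A, against 1034, 1071 and 1082 in wild type. The arrays of the strains did not overlap, but the difference was small, 0.10 on the log2 scale with a 95% interval of 0.0004 to 0.20 (adjusted p = 0.157). Mutant array 1 was the highest, and without it the log2 difference was 0.06. The low-affinity carriers therefore gave differences of opposite sign, of which that of HXT1 passed the test and that of HXT3 did not.

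HXT4 and HXT5 are carriers of intermediate affinity. HXT4 (YHR092C), induced by low glucose, read 412.4, 427.2 and 451.6 in H2B K111A, against 424.4, 374.6 and 456.5 in wild type. The wild-type arrays spanned all those of the mutant, and the log2 difference was 0.04 with a 95% interval of -0.11 to 0.19 (adjusted p = 0.706). Without wild-type array 2, the lowest, it was -0.03, and without wild-type array 3, the highest, it was 0.10.

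HXT5 (YHR096C), known for its expression in slowly growing and starved cells, was dim. It read 20.2, 16.1 and 21.4 in H2B K111A, against 15.6, 16.6 and 12.6 in wild type, and the strains overlapped. The ratio of the means was 1.29, close to that of HXT7, but with an adjusted p of 0.122 and a log2 difference of 0.13 (95% interval 0.01 to 0.24). On log2(intensity + 1) the difference was 0.34, with an adjusted p of 0.136.

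HXT2 (YMR011W), a carrier of intermediate to high affinity that is induced by low and repressed by high glucose, read 675.7, 643.4 and 626.0 in H2B K111A, against 697.6, 663.4 and 764.3 in wild type. The groups overlapped at wild-type array 2. The log2 difference was -0.12 with a 95% interval of -0.24 to 0.0003 (adjusted p = 0.159), and it was -0.07 without wild-type array 3.

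HXT7 (YDR342C), a high-affinity carrier gene repressed in abundant glucose, read 477.8, 441.0 and 433.9 in H2B K111A, against 359.2, 355.1 and 341.9 in wild type. All H2B K111A arrays lay above all wild-type arrays, with a gap wider than the spread within either strain. The means were 451 ± 23.6 in H2B K111A and 352 ± 9.04 in wild type (SD, n = 3 each), a log2 difference of 0.33 ± 0.04 (SE; limma, adjusted p = 0.00421). Its probe set bears the suffix for sets whose probes match more than 1 transcript. The nearly identical neighbouring gene HXT6 has no probe set of its own in the array annotation, so the signal may come from HXT7, HXT6 or both. The call held when any of the 6 arrays was left out, with log2 differences between 0.29 and 0.35 and adjusted p up to 0.0162.

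GAL2 (YLR081W), the galactose permease, which also carries glucose, is repressed in glucose medium and was near background. It read 5.7, 6.7 and 5.1 in H2B K111A, against 7.0, 7.6 and 6.3 in wild type, and the groups overlapped (log2 difference -0.04, 95% interval -0.12 to 0.03, adjusted p = 0.429). HXT10 (YFL011W), a family member that carries hexoses but is little expressed in growing cells, read 5.2, 5.4 and 5.2 in H2B K111A, against 4.5, 4.5 and 3.4 in wild type. The groups did not overlap, but wild-type array 3 was below background, and the difference in log2 was 0.04 (adjusted p = 0.376). The ratio of the HXT10 means, H2B K111A over wild type, was 1.27. With a pseudocount of 1 the log2 difference was 0.30 for HXT10 (limma, adjusted p = 0.0844). For GAL2 it was -0.22 (adjusted p = 0.181), and neither gene passed. The larger pseudocount of the main test shrinks differences at such readings, so that test could hardly show a modest difference in either gene.

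Neither glucose sensor passed the test. RGT2 (YDL138W), the sensor of abundant glucose, read 57.7, 58.7 and 63.8 in H2B K111A, against 61.5, 57.3 and 55.6 in wild type. Its log2 difference was 0.03 with a 95% interval of -0.06 to 0.12 (adjusted p = 0.652), and it ran from 0.0016 without mutant array 3 to 0.06 without wild-type array 1. SNF3 (YDL194W), the sensor of scarce glucose, read 38.9, 40.2 and 40.5 in H2B K111A, against 42.1, 34.2 and 36.1 in wild type. Wild-type array 1 lay above and the other two wild-type arrays below all mutant arrays, and the log2 difference was 0.05 (95% interval -0.05 to 0.15, adjusted p = 0.483). It was 0.10 without wild-type array 1 and 0.02 without wild-type array 2. On the scale of the test, either interval leaves out a log2 difference as large as that of HXT7. That scale shrinks the differences of the dimmer sensors more, so whether the same fold change is left out was not tested. With a pseudocount of 1 the log2 difference was 0.09 for SNF3 (limma, adjusted p = 0.455) and 0.05 for RGT2 (0.628). For HXT7 it was 0.36 (0.0154).

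**Figure D2:**
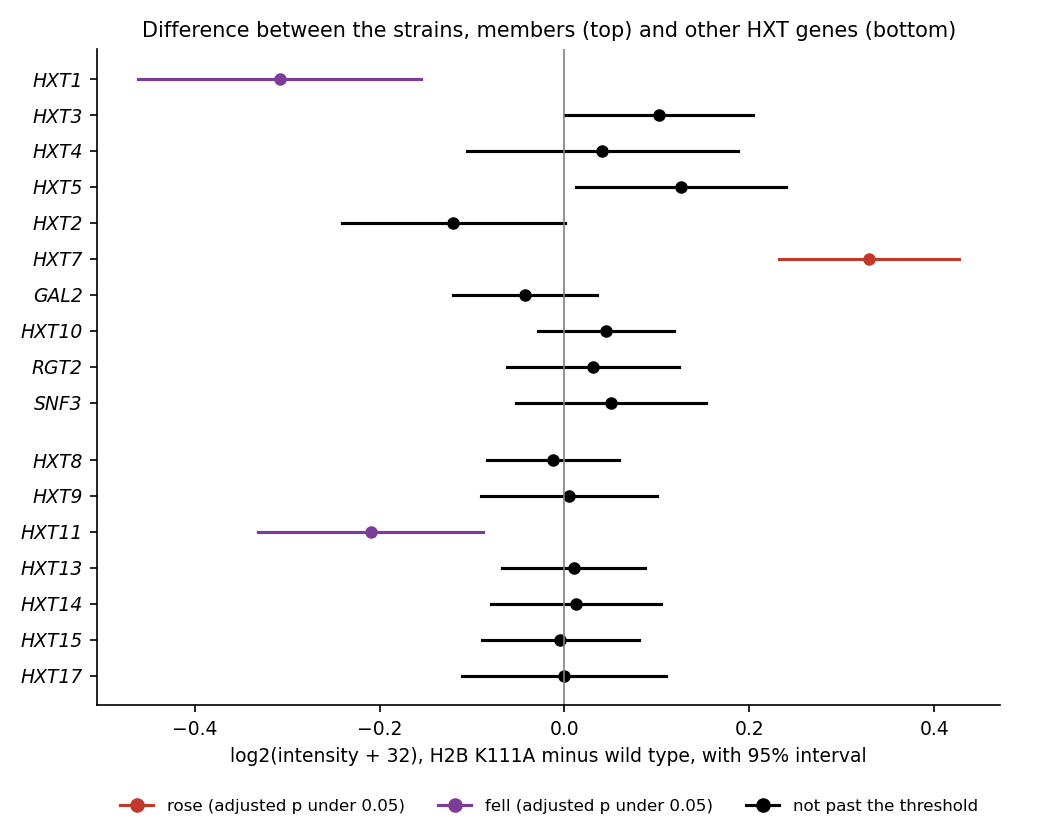
Log2 difference between the strains, H2B K111A minus wild type, for the 10 members (top) and the 7 other measured HXT genes (bottom); points are limma estimates and lines their 95% intervals. HXT7 rose, HXT1 and HXT11 fell, and the remaining intervals lie near or across 0.

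Counting arrays that do not overlap, HXT3, HXT7 and HXT10 were higher on every H2B K111A array than on every wild-type array and HXT1 was lower, that is 3 and 1 of the 10 members. Over all genes 18.2% were higher in this way and 18.6% lower, 36.7% together, so this share of the members is near that of all genes. By size of difference on log2(intensity + 32), HXT7 was the rise of rank 32 and HXT1 the fall of rank 39 among all 5449 genes. The absolute log2 difference was 0.33 for HXT7 and 0.31 for HXT1, against a median of 0.19 over the 792 genes past the threshold. The added 32 shrinks the differences of dim members. On log2(intensity + 1) the difference was 0.34 for HXT5 and 0.30 for HXT10, against 0.36 for HXT7 and -0.32 for HXT1, and only HXT7 passed the test.

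**Figure D3:**
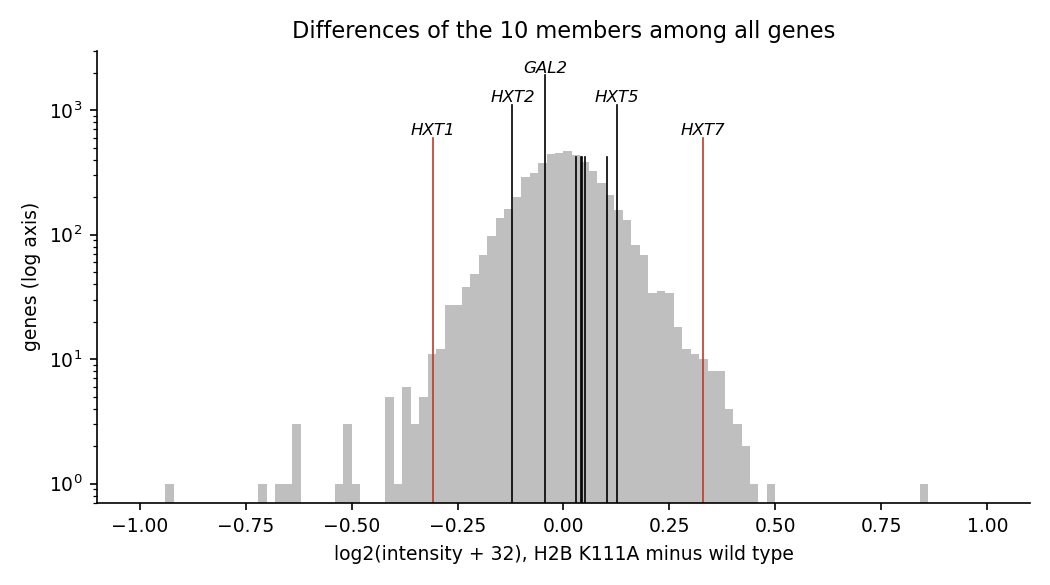
Histogram of the log2 difference, H2B K111A minus wild type, over 5449 genes (gene counts on a log axis), with a vertical line for each member. HXT1 and HXT7, in red, stand in the opposite tails at -0.31 and 0.33, and the other 8 members lie between -0.12 and 0.13.

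The members did not move together across the arrays. Each value was set against the mean of its own gene over the 6 arrays. Wild-type array 3 was the highest of all arrays for HXT1, HXT2 and HXT4, at 0.29, 0.17 and 0.10 above the gene's mean in log2. It was the lowest for HXT5, HXT7 and HXT10, at -0.14, -0.20 and -0.05. Mutant array 1 was the highest for HXT3 and HXT7, at 0.14 and 0.24, and the lowest for HXT1, at -0.25. HXT1 and HXT7 thus had their extremes on the same arrays with opposite sign, though HXT7 differed less within each strain.

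**Figure D4:**
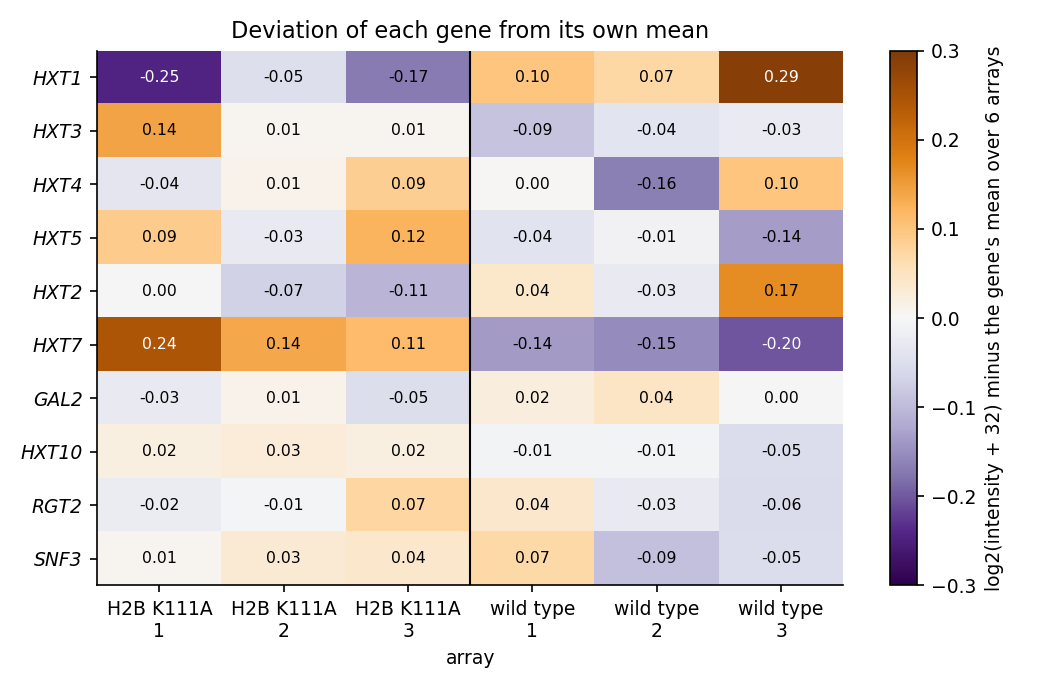
Log2(intensity + 32) of each member on each array minus the gene's own mean over the 6 arrays, with H2B K111A arrays left and wild-type arrays right; orange is above and purple below the mean. HXT1 runs from -0.25 on mutant array 1 to 0.29 on wild-type array 3, and HXT7 from 0.24 to -0.20 on the same arrays, while the sensors stay within 0.10 of their means.

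Several members are neighbours in the genome. In the RefSeq R64 order of genes, HXT7, HXT6 and HXT3 lie in a row with only YDR344C between HXT6 and HXT3, and HXT4, HXT1 and HXT5 lie in a row with only AHT1 between HXT4 and HXT1. In the first row HXT7 rose, and HXT3 had a log2 difference of 0.10. In the second row HXT1 fell, between HXT4 at 0.04 and HXT5 at 0.13, neither past the test.

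The genes whose pattern over the 6 arrays was most like that of HXT7 were ARG1 and ARG4, enzymes of arginine synthesis, with root mean square differences of 0.04 in log2 after centring each gene. ARG1 averaged 582 ± 16.6 in H2B K111A and 450 ± 27.6 in wild type, and ARG4 670 ± 27.3 in H2B K111A and 546 ± 15.4 in wild type (SD, n = 3 each). Most like HXT1 were SPL2, a regulator of phosphate uptake, and RIX1, a factor of large ribosomal subunit assembly, also at 0.04. SPL2 averaged 434 ± 28.5 in H2B K111A and 526 ± 45.4 in wild type, and RIX1 261 ± 27.2 in H2B K111A and 328 ± 13 in wild type (SD, n = 3 each). Since the pattern includes the difference between the strains, the choice itself fixed a like direction in these genes. A link between their functions and the transporters was not tested.

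Of the 9 other HXT genes 7 were measured, and 1 passed the test, about the 14.5% of all genes that did. HXT11 (YOL156W), which carries hexoses and is known for its role in drug resistance, read 6.4, 10.4 and 11.0 in H2B K111A, against 18.4, 13.9 and 14.8 in wild type. Its mean was 1.69-fold lower in H2B K111A, and its log2 difference was -0.21 ± 0.05 (SE; limma, adjusted p = 0.0342). On log2(intensity + 1) the difference was -0.72 (limma, adjusted p = 0.0647). The call was lost in 5 of the 6 fits that left out an array, all but that without wild-type array 2, with adjusted p up to 0.0922. HXT9, a close relative of HXT11, averaged 28.4 ± 1.35 in H2B K111A and 28.2 ± 2.77 in wild type on its brighter probe set (SD, n = 3 each). A dimmer HXT9 probe set of the kind with shared sequence averaged 25.6 ± 1.18 in H2B K111A and 23.6 ± 2.55 in wild type.

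The remaining relatives were dim. HXT14 averaged 9.53 ± 0.40 in H2B K111A and 9.20 ± 1.93 in wild type (SD, n = 3 each). HXT13 and HXT17, read by probe sets of the kinds with shared sequence and counted among the polyol carriers, averaged 3.37 ± 0.21 and 5.23 ± 2.02 in H2B K111A, against 3.13 ± 0.91 and 5.23 ± 1.44 in wild type. A dimmer probe set of each averaged 2.5 and 0.6 in H2B K111A, against 2.7 and 1.1 in wild type. Both dimmer sets were under background on all 6 arrays. HXT8 and HXT15 were at or under background on all 6 arrays, between 0.6 and 2.7. The HXT15 probe set has shared sequence too, and HXT16, its near copy, has no probe set of its own in the annotation.

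Around the transporters, 7 lists of glucose-sensing and sugar-use genes held 60 measured genes, of which 4 rose and 3 fell, against 6.92% and 7.62% of all genes. Their median log2 difference was -0.01. In the signalling between the sensors and Rgt1, 1 of 11 genes rose and none fell (3 at an unadjusted p under 0.05 in limma, as were 1729 of all 5449 genes). CDC53, the cullin of the ubiquitin ligase that marks Mth1 and Std1 for degradation, read 284.8, 276.9 and 281.6 in H2B K111A, against 253.0, 246.8 and 245.0 in wild type (1.13-fold, adjusted p = 0.0171), and the call was lost without mutant array 1 (adjusted p = 0.0594) or mutant array 3 (0.0670). The repressor gene RGT1 averaged 163 ± 5.80 in H2B K111A and 146 ± 4.85 in wild type (SD, n = 3 each, limma adjusted p = 0.0547), and passed with quantile normalization (0.0404) or with arrays centred on their median (0.0473).

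The corepressor genes gave differences of opposite sign, neither past the threshold. MTH1 averaged 44.1 ± 4.83 in H2B K111A and 37.7 ± 4.38 in wild type (SD, n = 3 each, limma adjusted p = 0.176), and STD1 220 ± 2.48 in H2B K111A and 241 ± 10.2 in wild type (adjusted p = 0.0757). GRR1, the F-box protein of the ligase, averaged 189 ± 4.07 in H2B K111A and 183 ± 5.54 in wild type (adjusted p = 0.473). For the sensor-associated kinase genes YCK1 and YCK2, the ligase subunit gene SKP1, the ubiquitin-conjugating enzyme gene CDC34 and the corepressor genes CYC8 and TUP1, log2 differences lay between -0.09 and 0.04, with adjusted p of 0.189 or more.

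Of the 12 genes of the Snf1 kinase and the Mig-type repressors 1 rose and 2 fell, against 6.92% and 7.62% of all genes. MIG3, a zinc finger repressor related to Mig1, read 43.2, 42.1 and 42.4 in H2B K111A, against 62.5, 62.5 and 75.5 in wild type, a log2 difference of -0.40 ± 0.05 (SE; limma, adjusted p = 0.00416). No array overlapped, and the call held when any of the 6 arrays was left out (adjusted p up to 0.0204). NRG2, another glucose repressor, averaged 58.0 ± 4.29 in H2B K111A and 73.9 ± 4.86 in wild type (SD, n = 3 each, limma adjusted p = 0.0171). REG1, the subunit that directs the Glc7 phosphatase against Snf1, averaged 190 ± 1.80 in H2B K111A and 166 ± 8.88 in wild type (adjusted p = 0.0287), a call lost without any of the mutant arrays or without wild-type array 2 (adjusted p up to 0.0994).

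MIG1 and MIG2, the main repressors of the high-affinity HXT genes in abundant glucose, are given after their values were seen. MIG1 averaged 196 ± 12.0 in H2B K111A and 227 ± 19.8 in wild type, and MIG2 225 ± 6.47 in H2B K111A and 253 ± 33.9 in wild type (SD, n = 3 each). Neither passed (limma, adjusted p = 0.0751 and 0.231). Without wild-type array 2 both did, at log2 differences of -0.25 and -0.24 (adjusted p = 0.0282 and 0.0232). Without wild-type array 3, the highest for both, the differences were -0.14 and -0.07 (adjusted p = 0.171 and 0.524). Neither passed in the other fits that left out an array.

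**Figure D5:**
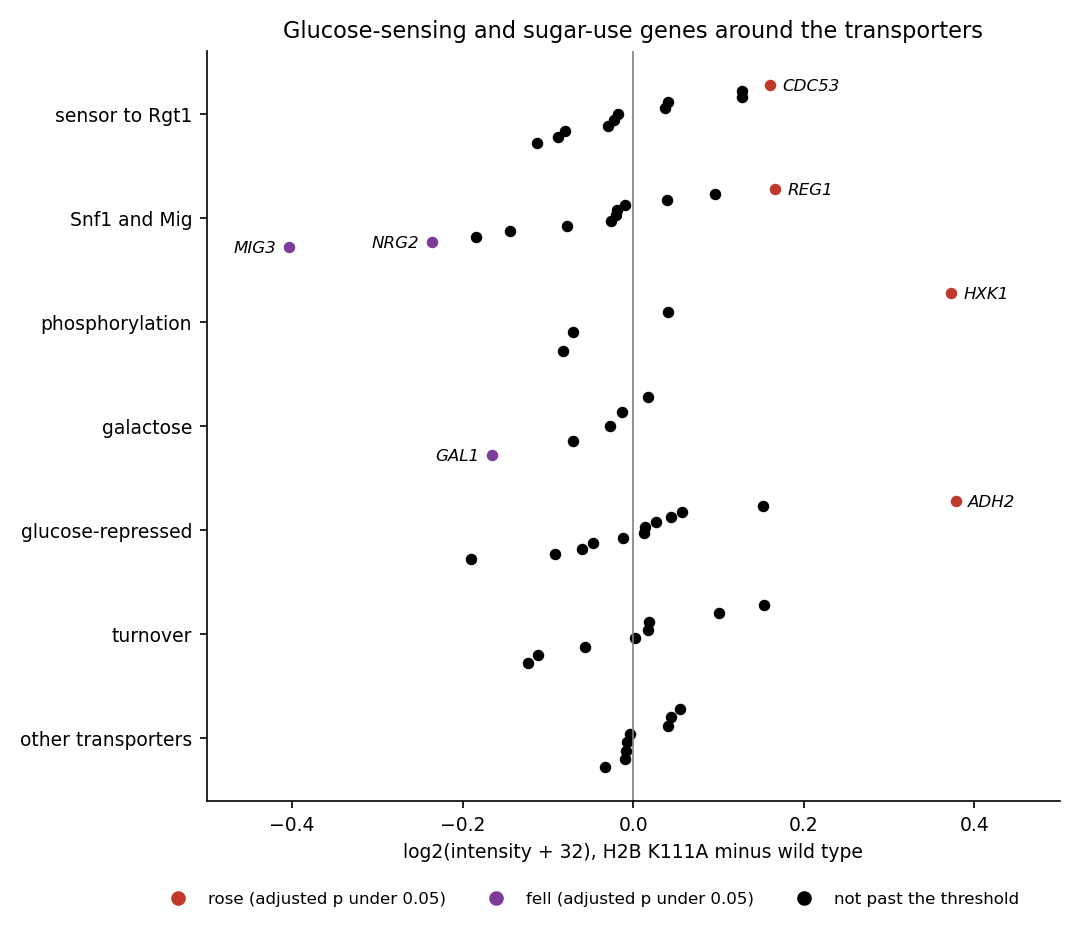
Log2 difference, H2B K111A minus wild type, of the 60 measured genes of 7 lists around the transporters, a point for each gene. The 7 genes past the threshold are named: HXK1, ADH2, REG1 and CDC53 rose, and MIG3, NRG2 and GAL1 fell.

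Of 4 genes of hexose phosphorylation, the step after uptake, 1 rose, against 6.92% of all genes. HXK1, the hexokinase gene repressed by glucose, read 551.4, 529.8 and 506.3 in H2B K111A, against 432.5, 402.9 and 370.5 in wild type, with no overlap (1.32-fold, limma adjusted p = 0.00600). HXK2, the hexokinase that predominates in glucose, averaged 1039 ± 54.7 in H2B K111A and 1102 ± 63.7 in wild type (SD, n = 3 each, adjusted p = 0.317). The glucokinase gene GLK1 averaged 452 ± 42.3 in H2B K111A and 475 ± 28.8 in wild type, and its relative EMI2 215 ± 7.73 in H2B K111A and 208 ± 11.5 in wild type.

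In the galactose regulon, which glucose represses, 1 of 5 measured genes fell, against 7.62% of all genes. GAL1, galactokinase, averaged 23.9 ± 3.09 in H2B K111A and 30.6 ± 1.59 in wild type (SD, n = 3 each, limma adjusted p = 0.0447), and the call was lost when any of the 6 arrays was left out (adjusted p up to 0.117). GAL7, GAL10 and GAL3 averaged 6.53 ± 1.24, 15.9 ± 1.54 and 15.1 ± 1.15 in H2B K111A, against 7.30 ± 2.12, 15.3 ± 0.40 and 17.4 ± 0.74 in wild type. The gene of the repressor Gal80 averaged 229 ± 7.95 in H2B K111A and 231 ± 7.59 in wild type.

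Of 12 genes repressed by glucose 1 rose and none fell, against 6.92% and 7.62% of all genes, with a median log2 difference of 0.01. ADH2, the alcohol dehydrogenase of ethanol use, whose sequence is close to that of ADH1, read 325.1, 330.4 and 283.5 in H2B K111A, against 240.3, 225.3 and 233.4 in wild type (1.34-fold, limma adjusted p = 0.00560). The invertase gene SUC2, singled out after its values were seen, averaged 127 ± 8.11 in H2B K111A and 137 ± 4.83 in wild type (SD, n = 3 each, adjusted p = 0.1998). The other 10 genes of the list did not pass the test.

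No gene passed in the remaining lists. Of 8 genes for the ubiquitin-dependent turnover of sugar transporters, limma called 0 and 3 had an unadjusted p under 0.05, as had 1729 of all 5449 genes, with log2 differences between -0.12 and 0.15. Of 8 measured transporters of other sugars and polyols or their relatives, limma called 0, and 0 had an unadjusted p under 0.05. Their log2 differences lay between -0.03 and 0.06.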

How the data were processed

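Total RNA of 6 samples, 3 for each strain, was read as biotin-labelled cRNA on 1-colour arrays, per the labels' protocols. The values are linear intensity values, deposited by the authors with the arrays already on a common scale; their software and scaling method: not given in the sources used here. Of 10928 probe sets, 5498 matched a gene of the RefSeq R64 table through the annotation's gene identifier. The brightest probe set by its mean over the 6 arrays was kept where several read a gene (47 genes), which left 5449 genes, with no filter on dim genes. From these, log2(intensity + 32) was computed and the strains compared by moderated linear models (limma 3.58.1, R 4.3.3; lmFit, then eBayes; two-sided), adjusted over all genes, with 8.91 degrees of freedom. The few arrays limit the precision. The procedure was tested on simulated data. The members and lists were chosen with earlier results of these data known. Named genes are all members and measured HXT relatives, all measured genes of the sensor signalling, phosphorylation and galactose lists, up to 4 passing genes of each other list, and the 2 genes nearest to each passing member; others are marked. No sequence or coordinates are given, and the planned sequence comparison was not run. Alternatives covered pseudocount, scaling, filter, replicate block, variance prior, array weights, probe set choice, threshold and leaving out each array. Figures used matplotlib 3.10.9.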

Additional observations from a re-analysis of the deposited data

How the results depend on the processing

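The 2 calls among the members became 1 with a pseudocount of 1 and 1 at a threshold of 0.01, and lay between 1 and 2 when each array was left out; HXT7 passed in every alternative run. The call of 1 other HXT gene became 0 with a pseudocount of 1, 0 with the replicate block and 0 at a threshold of 0.01 (1 gene at an unadjusted p under 0.05 in limma in each), and lay between 0 and 1 with an array left out. The 7 pathway calls became 4 with the replicate block, 3 at a threshold of 0.01 and 4 to 7 with an array left out. The 7 without wild-type array 2 were in part other genes, with MIG1 and MIG2 but without REG1 and GAL1. Over all genes, the 792 calls became 489 with a pseudocount of 1, 346 with the replicate block, 159 at a threshold of 0.01 and 213 to 559 with an array left out. The lower counts were 303, 455 and 213 without mutant arrays 1, 2 and 3, and 477 without wild-type array 1. The numbers were not taken to pair the arrays, since deviations of arrays with the same number correlated at -0.23, -0.06 and -0.17. The block ended the calls of HXT11, CDC53, REG1 and GAL1 and of no other named gene.

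Signs turned only for genes that passed in no alternative, with log2 differences near 0. Leaving out arrays gave -0.0311 to 0.1013 for HXT4, -0.0307 to 0.0354 for HXT9, -0.0115 to 0.0236 for HXT13 and -0.0118 to 0.0507 for HXT14. The same fits gave -0.0244 to 0.0201 for HXT15, -0.0327 to 0.0452 for HXT17, -0.0377 to 0.01 for YCK2, -0.0569 to 0.0159 for GAL7, -0.0018 to 0.0435 for GAL10 and -0.0371 to 0.0092 for GAL80. Array weights gave -0.0032 for HXT9. Quantile normalization gave 0.0025 for HXT15, 0.0032 for HXT17 and 0.0003 for YCK2, and centring on the median 0.0006 for HXT17. The filter on dim genes left out HXT8, HXT13 and HXT15. The causes were not tested. Readings near background, such as those of GAL2, HXT10 and most other HXT genes, limit what these arrays could show.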
